A study of Gallus gallus with 6 samples.

Results

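Macrophages take up modified lipoproteins, microbes and dying cells through a mixed group of surface proteins called scavenger and lectin receptors. The group followed here comprised 10 genes, and every probe set of the chicken array that the platform annotation assigns to one of them alone was taken. The annotation held 13 such probe sets for 8 of the 10 genes, among 13051 annotated genes on the array. MSR1 and CD14 had no probe set under their symbols in the annotation used here and are not analysed. CD36, MRC1, MRC2, STAB1 and TIMD4 had a pair of probe sets each, called set a and set b in order of their mean value, and MARCO, SCARB1 and SCARB2 had 1 each.

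The cells were primary monoblasts of Brown Leghorn chickens, the immature cells that give rise to monocytes and then macrophages. They had been transformed by v-Myb, the retroviral transcription factor oncoprotein of avian myeloblastosis virus, and had gone into culture 16 days after infection. In one group the cells carried wild type v-Myb and in the other the mutant designated deltaP, with 3 biological replicates of each and 1 Affymetrix array per replicate. The labels give neither the residues that deltaP alters nor how many birds stand behind a culture, and the group with deltaP differs from wild type in no other labelled way. The series title concerns INK4A expression and the v-Myb leucine zipper region, and no label names a question about scavenger receptors.

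These receptors come from several unrelated protein families. Class A receptors such as MARCO and MSR1 have a collagen-like stalk and bind bacteria and polyanionic particles. The CD36 family forms class B, whose members hold lipid-binding ectodomains between a pair of membrane-spanning segments. STAB1 (stabilin 1) clears extracellular matrix fragments and other unwanted self ligands, the mannose receptors MRC1 and MRC2 carry C-type lectin domains, TIMD4 binds phosphatidylserine on apoptotic cells, and CD14 hands lipopolysaccharide to Toll-like receptor 4. In mammals MARCO, MRC1, STAB1 and TIMD4 are known mostly from mature or tissue-resident macrophages rather than from monocyte precursors.

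Values are log2 expression values per probe set as deposited. For each probe set, adding the wild type and the deltaP value of a replicate number gave the same sum for all 3 numbers, to within 0.001. Each probe set thus holds only 3 differences, deltaP minus wild type within a replicate number (a pair). The value of a single array is therefore a deposited value and not its original level, and errors below are the SD of the 3 pair differences. Between 41.8% and 42% of probe sets lay above 4 on each array. A probe set was tested when it lay over 4 on at least 3 of the 6 arrays, which 16199 of 38439 probe sets did (42.1%). The labelled cell type was checked with markers of other cells. Of the monocyte and macrophage markers annotated, 12 of 12 passed that filter, among them the receptor gene CSF1R, and 0 of them had an unadjusted limma p under 0.05. Over all 7768 tested genes 9.99% had one. Of the fibroblast and stromal markers 13 of 14 lay at or under 4 on every array, as did 10 of 11 endothelial and 9 of 11 lymphocyte markers. The T cell genes CD3D and CD3E passed the filter, with means of 10.59 and 6.06 in wild type and 10.02 and 6.31 in deltaP. Both had pairs of both signs. The linear signal of the lymphocyte list summed to between 964.4 and 2440 in wild type and between 816.1 and 2069 in deltaP. The summed linear signal of the granulocyte or heterophil markers annotated, of which 10 of 11 passed the filter, ran from 119423 to 183414 on the wild type arrays and from 77479 to 114296 on the deltaP arrays. Single markers of that list went both ways, with 2 higher (SERPINB10B and EXFABP) and 3 lower (among them AvBD4) at an unadjusted limma p under 0.05. Over all 7768 tested genes 3.93% were higher and 6.06% lower at that threshold. Of the erythroid markers 4 of 7 passed the filter, with sums from 299.5 to 589.7 in wild type and from 322.3 to 577.9 in deltaP. Among them was ALAS1, a different gene that the entry ALAS2 matched only by a synonym. Its means were 7.79 in wild type and 7.99 in deltaP, so the count and the sums do not stand for erythroid markers alone. Of the thrombocyte markers 2 of 4 passed, and their sum ran from 3757 to 6789 in wild type and from 1733 to 3127 in deltaP, mostly through F13A1, which macrophages also express. Sums without overlap between the groups were not particular to the granulocyte and thrombocyte lists. Those of the monocyte and macrophage list ran from 121957 to 134842 in wild type and from 110839 to 121830 in deltaP. The endothelial sums ran from 8814 to 10329 in wild type and from 7370 to 8636 in deltaP, while the erythroid and lymphocyte sums overlapped. For a single probe set, the equal sums keep the groups apart whenever all 3 pairs share a direction. Of all 38439 probe sets, tested or not, 10.7% were higher and 18.3% lower in all 3 pairs. All these sums are of deposited values and not of original array levels. The part of these lists in the receptor values was not tested.

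Most of the receptor probe sets, and 4 of the 8 genes in all their probe sets, stayed in the dim range of the array in both groups. Of the 13 probe sets, 9 lay under 3 on every array (69.2%, against 45.3% of all probe sets), and 2 passed the filter and could be tested, set a of TIMD4 and set a of STAB1. For CD36, MRC1, MRC2 and SCARB1 every probe set lay under 3 on every array. MARCO and SCARB2 lay around the filter value and exceeded 4 on 1 and 2 arrays. No receptor probe set passed the test between deltaP and wild type. With the replicate number as a block, limma called 0 of the 2 tested probe sets at an adjusted p under 0.05, against 0 of all 16199 (0%), and 0 of 2 at an unadjusted p under 0.05, against 1500 of 16199 (9.26%). Without the filter, limma gave 0 of 13 with an unadjusted p under 0.05, where 1874 of 38439 probe sets (4.88%) had one. Leaving out replicate 3 gave 12 adjusted calls over the array, and TIMD4 and STAB1 were not among them (limma adjusted p of 0.904 and 0.866). Over the 13 probe sets the median log2 difference was 0.02, beside -0.01 over all 38439.

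**Figure D1:**
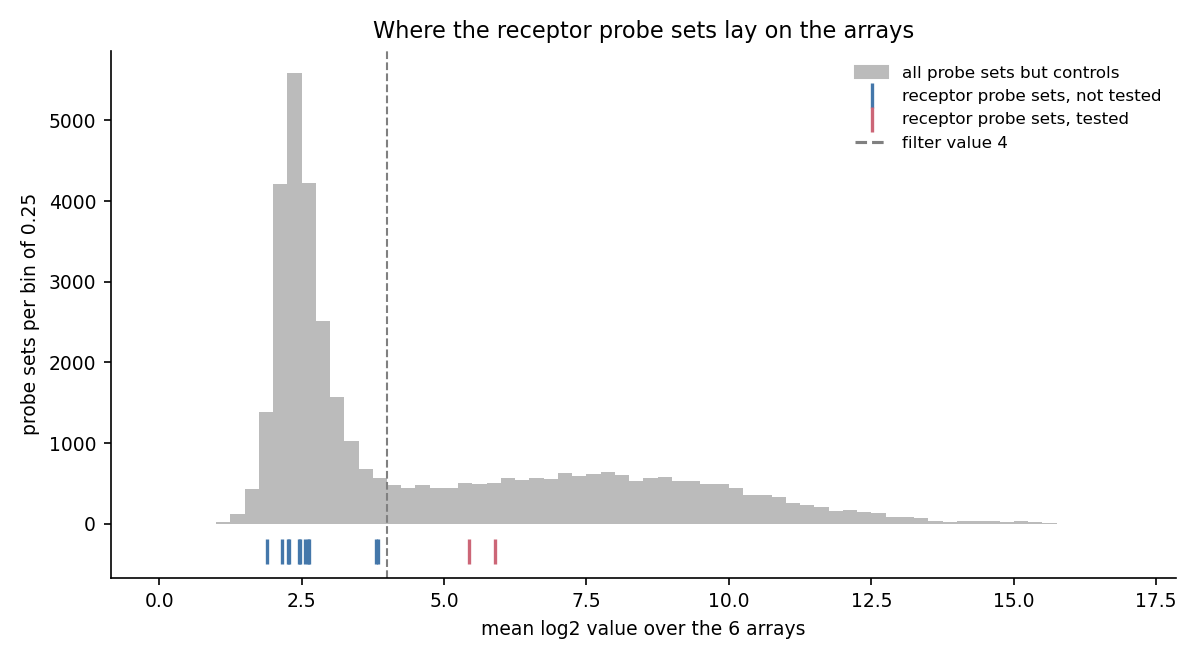
Histogram of the mean log2 value over the 6 arrays for all 38439 probe sets that are not controls (number of probe sets per bin of 0.25), with the 13 receptor probe sets as ticks under the axis and the filter value of 4 as a dashed line. The 2 tested receptor probe sets lie right of the line and the other 11 left of it, 9 of them within the dim peak.

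**Figure D2:**
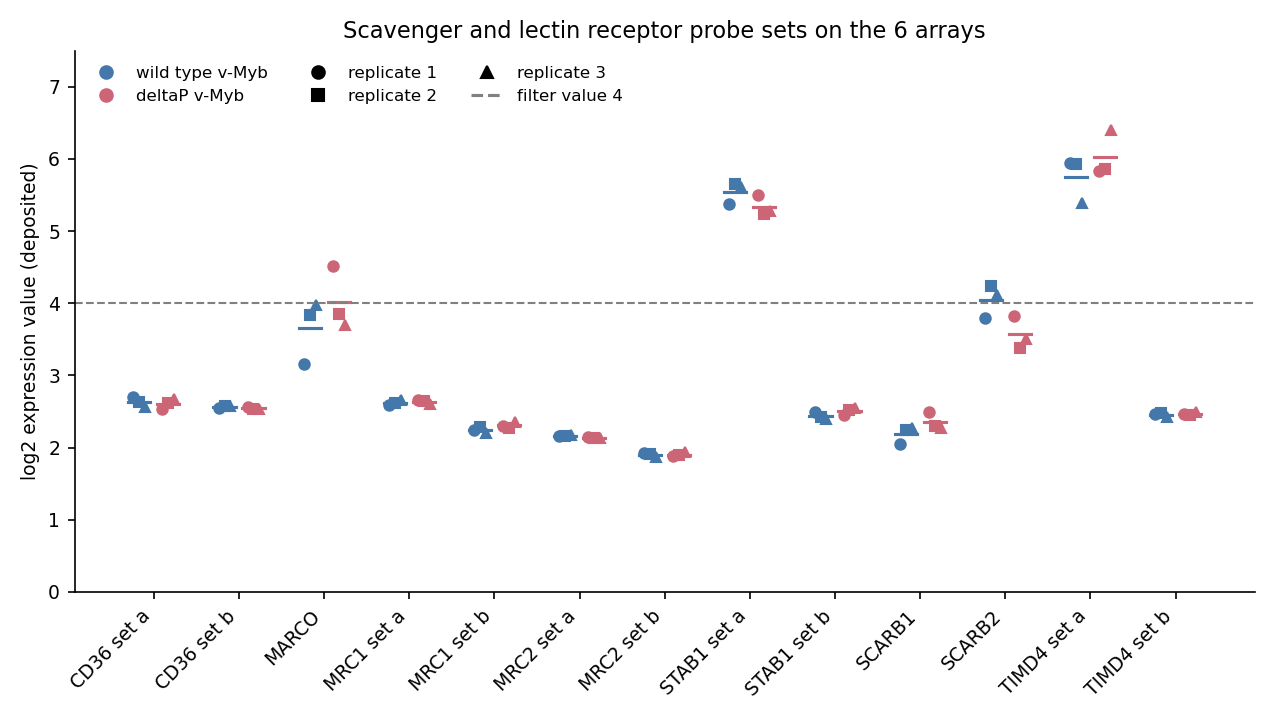
Deposited log2 value of each receptor probe set on the 6 arrays, in blue for wild type and red for deltaP v-Myb, with the replicate number given by the symbol and the group mean (n = 3) by a bar. TIMD4 set a and STAB1 set a lie above 5 on every array, MARCO and SCARB2 lie around 4, and the other 9 probe sets lie under 3.

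TIMD4 (Entrez gene 416250, chromosome 13), the phosphatidylserine receptor with which macrophages tether apoptotic cells, had set a above the filter on all 6 arrays. Its log2 values were 5.95, 5.93 and 5.38 on the wild type arrays of replicates 1, 2 and 3 and 5.84, 5.85 and 6.4 on the deltaP arrays. The groups overlapped. Replicate 3 held both the lowest wild type and the highest deltaP value, which the equal sums fix for the pair with the largest difference. The mean log2 difference was 0.28 ± 0.64 (SD, n = 3 pairs), a 1.21-fold higher level in deltaP, with pair differences of -0.11, -0.07 and 1.01. In limma with the block the adjusted p was 0.792, and the 95% confidence interval ran from 0.736-fold to 1.99-fold. The sign of the mean rested on pair 3, and without it the log2 difference was -0.09.

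In pair 3 the control RNAs moved too: the median deltaP minus wild type difference was 0.68 over 42 probe sets for poly-A spike-ins and 0.50 over 27 probe sets for hybridization controls. In pairs 1 and 2 these medians lay between -0.18 and 0.04, and the median of all tested probe sets in pair 3 was -0.05. The part of the controls in the TIMD4 value was not tested. Nor was it tested for genes named below with their largest difference in pair 3, among them SCARF1, AXL and IRF8 (lower) and LIPA (higher). Set b of TIMD4 stayed between 2.42 and 2.50 on all 6 arrays, with a mean log2 difference of 0.02 ± 0.05 (SD, n = 3 pairs). Set a is of the kind of probe set that can match several transcripts, and the gene table lists both Tim1 and Tim4 as synonyms of this chicken gene, so related transcripts may contribute to it.

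STAB1 (Entrez gene 415894, chromosome 12), stabilin 1, was the other receptor with a tested probe set. The log2 values of set a were 5.38, 5.65 and 5.61 in wild type and 5.51, 5.23 and 5.28 in deltaP. The groups overlapped through replicate 1, where the deltaP array was the higher one. The mean log2 difference was -0.21 ± 0.29 (SD, n = 3 pairs), a 1.16-fold lower level in deltaP, from pair differences of 0.13, -0.42 and -0.34. Leaving out 1 replicate in turn moved it between -0.38 (without replicate 1) and -0.10 (without replicate 2). Limma with the block gave an adjusted p of 0.788 and a 95% interval from 0.599-fold to 1.25-fold. Set b lay between 2.39 and 2.55 and had a difference of the other sign, 0.07 ± 0.10 (SD, n = 3 pairs). Stabilin 1 is also known from sinusoidal endothelium, and of the 11 endothelial markers annotated PECAM1, an adhesion molecule that leukocytes and platelets also carry, was the 1 above 4. Its means were 13.23 in wild type and 12.92 in deltaP (limma unadjusted p of 0.052). PECAM1 was lower in 3 of 3 pairs, as were 18.3% of all 38439 probe sets, tested or not. Its part in the STAB1 value was not tested.

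Among class A receptors, MARCO (Entrez gene 395488, chromosome 7), which binds bacteria, had log2 values of 3.16, 3.84 and 3.98 in wild type and 4.52, 3.85 and 3.70 in deltaP. Only the deltaP array of replicate 1 exceeded 4. That replicate also held the lowest wild type value, which the equal sums fix for the pair with the highest deltaP value. The pair differences were 1.36, 0.01 and -0.28, with a mean of 0.36 ± 0.87 (SD, n = 3 pairs). In the limma fit without a filter the unadjusted p was 0.379 and the adjusted p 0.848. Without replicate 1 the log2 difference was -0.13, so the sign of the mean came from that pair. At these values near the floor a fold change cannot be read reliably.

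The CD36 family has 3 members, and none was tested. CD36 (Entrez gene 417730, chromosome 1), which takes up oxidized lipoproteins and fatty acids, lay between 2.54 and 2.70 in set a and between 2.54 and 2.58 in set b over all arrays. Its mean log2 differences were -0.02 ± 0.14 and -0.02 ± 0.04 (SD, n = 3 pairs). SCARB1 (Entrez gene 416814, chromosome 15), the receptor for high-density lipoprotein, had values of 2.05, 2.24 and 2.27 in wild type and 2.49, 2.29 and 2.27 in deltaP. It was higher in deltaP in 3 of 3 pairs, by 0.45, 0.05 and 0.01. Of all 38439 probe sets 10.7% were higher in all 3 pairs, and limma without a filter gave SCARB1 an unadjusted p of 0.175. All 6 values lay in the dim range, where a level cannot be told from the floor.

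SCARB2 (Entrez gene 422638, chromosome 4), known in mammals as the lysosomal membrane protein LIMP2, which carries glucocerebrosidase to lysosomes, had the lowest p of the 13 probe sets. Its log2 values were 3.80, 4.24 and 4.11 in wild type and 3.82, 3.38 and 3.51 in deltaP. The groups overlapped through replicate 1, in which both arrays were equal to within 0.02, while in replicates 2 and 3 the deltaP array was lower. The mean log2 difference was -0.48 ± 0.45 (SD, n = 3 pairs), with pair differences of 0.02, -0.86 and -0.61. In limma without a filter its unadjusted p was 0.0761 and its adjusted p 0.838, so it did not pass. Leaving out 1 replicate in turn gave log2 differences from -0.73 to -0.29. SCARB2 exceeded 4 on only 2 arrays, and as for MARCO a fold change at these values cannot be read reliably.

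**Figure D3:**
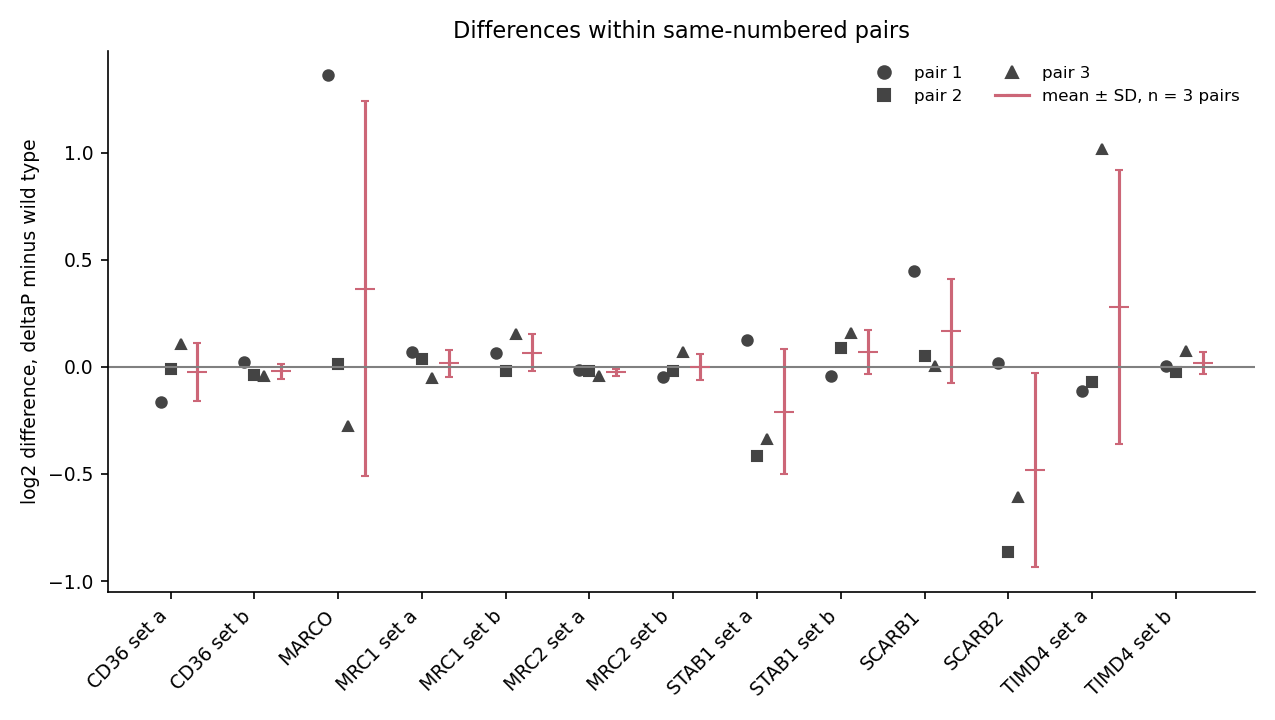
Log2 difference, deltaP minus wild type, of each receptor probe set in the 3 same-numbered pairs (black symbols), with the mean ± SD of the pairs in red. The pairs of TIMD4 set a, STAB1 set a, MARCO and SCARB2 differ in sign, and the mean of MARCO rests on pair 1 and that of TIMD4 set a on pair 3.

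The probe sets annotated to the mannose receptors MRC1 and MRC2 lay at the floor of the array. MRC1 (Entrez gene 420516, chromosome 2), which binds mannose and fucose on glycoproteins, lay between 2.60 and 2.66 in set a and between 2.20 and 2.35 in set b. MRC2 (Entrez gene 419950, chromosome 27), a collagen receptor of fibroblasts and other stromal cells as well as macrophages, lay between 2.13 and 2.17 in set a and between 1.87 and 1.94 in set b. The mean log2 differences of the 4 probe sets lay between -0.03 and 0.07. Set a of MRC2 was lower in deltaP in 3 of 3 pairs, with differences of -0.02, -0.02 and -0.04, a direction that 18.3% of all 38439 probe sets shared. Over the 9 receptor probe sets under 3, 26 of 27 pair differences were smaller than 0.2 in size, the exception being SCARB1 in pair 1.

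Probe sets annotated to relatives of the mannose receptor did give a signal where those of MRC1 and MRC2 did not. MMR1L4 (listed under MRC1L-B among its synonyms), a chicken paralogue of the macrophage mannose receptor, LY75, an endocytic lectin receptor of dendritic cells and macrophages, and PLA2R1, the phospholipase A2 receptor of the same family, all passed the filter. MMR1L4 had log2 values of 7.48, 7.64 and 7.96 in wild type and 7.68, 7.52 and 7.20 in deltaP. Its probe set shares a name stem with both MRC1 probe sets, so which paralogue each measures rests on the annotation and was not tested. LY75 had 13.61, 13.50 and 13.35 in wild type and 13.17, 13.29 and 13.44 in deltaP, and PLA2R1 had 12.33, 12.22 and 12.29 in wild type and 12.06, 12.17 and 12.10 in deltaP. MMR1L4 and LY75 had pairs of both signs. PLA2R1 was lower in deltaP in all 3 pairs, as were 18.3% of all 38439 probe sets, tested or not.

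All 3 had a lower mean in deltaP, with log2 differences of -0.23, -0.19 and -0.17, and none passed the test (limma adjusted p of 0.788, 0.704 and 0.671). Of the 3 tested probe sets of PLA2R1, 1 was higher and 2 were lower, and all 3 of LY75 were lower. The remaining genes of the list that had a probe set and were not tested included the lectin genes CLEC3A and CLEC3B, with means under 3 in both groups.

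Other scavenger receptors showed a mixture of genes under and above the filter. Of 10 annotated genes in the other classes, STAB1 among them, 5 passed the filter. LRP1, an endocytic receptor for apoptotic cells and lipoproteins, and CD163L, which the gene table also lists as CD163, the haemoglobin scavenger receptor, had means between 2.13 and 2.54 in both groups. SCARF1, a receptor for modified lipoproteins, had values of 8.99, 8.61 and 9.61 in wild type and 8.25, 8.63 and 7.64 in deltaP. Its log2 difference was -0.90 ± 1 (SD, n = 3 pairs), smaller than its SD, and pair 2 showed no difference (0.01). DMBT1, a scavenger receptor cysteine-rich protein of mucosal defence, was higher in deltaP in 3 of 3 pairs, by 0.63, 0.25 and 0.04. Of all 38439 probe sets, tested or not, 10.7% were higher in all 3 pairs.

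Limma gave adjusted p of 0.546 for SCARF1 and 0.584 for DMBT1. CD44, the hyaluronan receptor, and VLDLR, a lipoprotein receptor, had mean differences of 0.31 and 0.12 with pairs of both signs. Of the class A list, besides MARCO, COLEC12, a collectin-type scavenger receptor, passed the filter, and SCARA5, COLEC10 and COLEC11 lay under 3 on every array. COLEC12 had pair differences of 0.14, 0.16 and 2.39, so that its mean of 0.90 ± 1.29 (SD, n = 3 pairs) came mostly from pair 3, the pair with the higher control RNAs. Limma gave it an adjusted p of 0.635, and the part of the controls was not tested. The wild type values of COLEC12, 4.11, 4.10 and 2.98, lay around or under the filter value, where a fold change cannot be read reliably.

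Genes for apoptotic cell engulfment, the setting in which TIMD4 acts, had 17 tested members besides TIMD4, of which 9 were higher and 8 lower in deltaP. AXL, a receptor tyrosine kinase that binds apoptotic cells through the bridging protein GAS6, had values of 6.45, 6.81 and 7.10 in wild type and 6.36, 6 and 5.71 in deltaP. AXL was lower in deltaP in all 3 pairs, as were 18.3% of all 38439 probe sets, tested or not. Its pair differences of -0.09, -0.81 and -1.38 were unequal. ITGAV, the integrin alpha V subunit that binds MFGE8 on apoptotic cells, was lower, by log2 differences of -0.36, -0.39 and -0.16 in the 3 pairs. Both had an unadjusted limma p under 0.05 (0.0405 and 0.0357), and limma adjusted p of 0.516 and 0.497. They were 2 of the 17 genes, and over all 7768 tested genes 9.99% had an unadjusted p under 0.05.

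ELMO1, an adaptor of the engulfment machinery, was higher by 0.28 ± 0.14 and C1QA, a complement component that opsonizes dying cells, by 0.45 ± 0.37 (SD, n = 3 pairs), with limma adjusted p of 0.562 and 0.601. MERTK, the relative of AXL best known from macrophage efferocytosis, stayed at means of 2.39 in wild type and 2.33 in deltaP. The engulfment adaptor gene GULP1 and the bridging protein gene PROS1 also lay under 4 on every array.

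CD14 itself is not analysed here, and the genes that act with it in the recognition of lipopolysaccharide were examined. All 9 annotated partners passed the filter, and 6 had a higher and 3 a lower mean in deltaP. Their median log2 difference was 0.08, beside 0.01 over all tested genes. MYD88, the adaptor of Toll-like receptors, was the 1 gene of these 9 with an unadjusted limma p under 0.05. Over all 7768 tested genes 9.99% had one. Its log2 values were 10.45, 10.57 and 10.37 in wild type and 10.96, 10.85 and 11.04 in deltaP. The pair differences were 0.51, 0.28 and 0.67, and 10.7% of all 38439 probe sets, tested or not, were higher in all 3 pairs. The difference of 0.49 ± 0.20 (SD, n = 3 pairs) had an adjusted p of 0.387 in limma. LY96, the MD-2 co-receptor of Toll-like receptor 4, was higher in 3 of 3 pairs by 0.17 ± 0.06 (SD, n = 3 pairs, limma adjusted p of 0.679). LBP, which loads lipopolysaccharide onto CD14, and IRAK4, a kinase downstream of MYD88, had pairs of both signs. The 3 genes with a lower mean were TRAF6, TLR4 and TLR2A, with log2 differences of -0.29, -0.16 and -0.13. Toll-like receptor 4 (TLR4) was lower in 3 of 3 pairs, by -0.16, -0.02 and -0.31, as were 18.3% of all 38439 probe sets, tested or not. Limma gave TRAF6, TLR4 and TLR2A adjusted p of 0.689, 0.753 and 0.858.

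Genes that handle the lipid cargo of CD36 family receptors went both ways. Of 19 annotated genes 11 were tested, 5 higher and 6 lower. LIPA, the lysosomal acid lipase, was higher in deltaP in 3 of 3 pairs by 0.36, 0.45 and 1.17. Of all 38439 probe sets, tested or not, 10.7% were higher in all 3 pairs. The 5 tested probe sets of LIPA were all higher. NR1H3, the liver X receptor alpha that controls cholesterol efflux genes, was lower, by log2 differences of -0.43, -0.24 and -0.25, and both of its probe sets were lower. Limma gave adjusted p of 0.421 for LIPA and 0.481 for NR1H3. NPC2, the lysosomal cholesterol carrier, was higher by 0.32 ± 0.27 (SD, n = 3 pairs, limma adjusted p of 0.555). ABCA1, the cholesterol exporter, had a mean log2 difference of 0.68 ± 0.78 (SD, n = 3 pairs), smaller than its SD, with pairs of both signs (-0.01, 1.52 and 0.53). Its limma adjusted p was 0.601. Its wild type mean of 4.11 lay around the filter value, where a fold change cannot be read reliably. PPARG, the nuclear receptor that induces CD36 in mammalian macrophages, reached 4.13 on 1 array and was not tested. The fatty acid carrier gene FABP4 and the lipoprotein lipase gene LPL lay under 3 on every array.

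Other phagocytic receptors and the transcription factors of macrophages were mostly well above the filter. Of the Fc, complement and integrin list 7 of 10 annotated genes were tested, with 3 higher and 4 lower. C3AR1L, a complement anaphylatoxin receptor gene, was higher by 0.76 ± 0.53 and BTK, a signalling kinase of phagocytes, by 0.40 ± 0.17, while ITGB2, the common chain of leukocyte integrins, was lower (log2 difference -0.33 ± 0.10, all SD over 3 pairs). Their limma adjusted p were 0.421, 0.469 and 0.426. CD47, the signal on cells that holds back phagocytosis, had a mean difference of -0.26 with 1 of its 3 tested probe sets higher and 2 lower.

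Of 10 tested macrophage transcription factors, 5 were higher and 5 lower. IRF8, a determinant of the monocyte lineage, was lower, by log2 differences of -0.27, -0.26 and -1.05, and CEBPB by differences of -0.36, -0.15 and -0.19, with limma adjusted p of 0.49 and 0.541. SPI1, which encodes PU.1, differed by 0.12 ± 0.05 (SD, n = 3 pairs), and BACH1, a repressor of haem oxygenase genes, had tested probe sets of both signs. The factor genes MAF and KLF4 lay under 4 on every array.

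**Figure D4:**
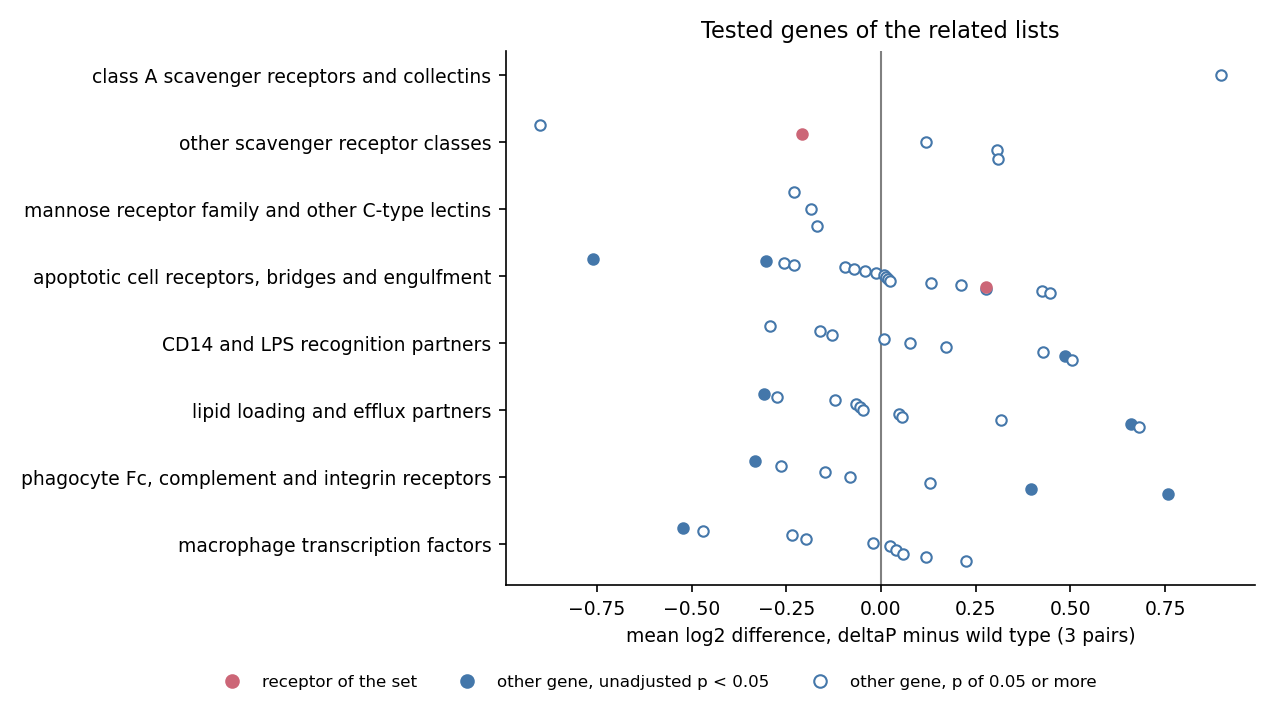
Mean log2 difference, deltaP minus wild type over 3 pairs, of each tested gene in the related lists, 1 point per gene by its brightest tested probe set, with TIMD4 and STAB1 in red and genes with an unadjusted limma p under 0.05 filled. The points spread to both sides of 0 in each list with more than 3 tested genes, and 0 genes passed after adjustment.

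Over the 9 related lists, 93 annotated genes outside the receptor group were counted once each and 62 were tested. Among the 93, but not the 62, was CD248, a different gene that the entry CD93 matched only by a synonym. An unadjusted limma p under 0.05 was found for 4 genes with a higher and 5 with a lower deltaP mean (14.5%), where 776 of all 7768 tested genes had one (9.99%), 3.93% higher and 6.06% lower. At an adjusted p under 0.05 limma with the block called 0 of the 62, and the lowest adjusted p among them was 0.387, that of MYD88. Their median log2 difference was 0.01, the same as over all tested genes.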

How the data were processed

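The authors deposited log2 expression values of 38535 probe sets (96 of them array controls) on 6 arrays. The submitters' processing notes name GCRMA and Partek 6.4. GCRMA corrects background by probe sequence and quantile-normalizes the arrays, and it compresses dim probe sets towards a floor. The deposited log2 values carry no depth, so the number of arrays limits the precision. Same-numbered arrays deviated from their group means with a correlation of -1 in each pair. An additive effect of the number was thus absent from the deposited values (the sources used here do not give the step that removed it), and p-values measure only the spread of the pair differences.

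Probe sets over 4 on at least 3 arrays were tested in limma 3.58.1 (R 4.3.3) (lmFit, then eBayes with a trend on intensity), with the replicate number as a block, two-sided, with Benjamini-Hochberg adjustment over all 16199. The fit was tested on simulated data. On 5 simulated tables of 16199 probe sets, 5.77% of null p-values lay under 0.05 with the block and 19.5% without it. It found 13.8% of probe sets changed 2-fold and 79.6% of those changed 8-fold.

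Symbols came from the platform annotation, matched through Entrez IDs to a RefSeq table of GRCg7b, also used for chromosomes. The table changed 0 symbols. A list gene stands for its brightest tested probe set over all arrays. The members, lists, filter and test were chosen with earlier results of these data known. The named genes are all the receptors and, in each related list, up to 4 tested genes with the smallest p. The lipopolysaccharide partners named for a lower mean, and genes named as untested or under the filter, were chosen after their values were seen. Alternatives were other filters, no block, array centring, other eBayes settings, 1 probe set per gene and leaving out each replicate.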

Additional observations from a re-analysis of the deposited data

How the results depend on the processing

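Without the replicate block limma called 1120 probe sets at an adjusted p under 0.05 and 4273 at an unadjusted p under 0.05, against 0 and 1500 with it, because it counts residual degrees of freedom that the paired values do not hold. The adjusted calls included neither of the 2 tested receptor probe sets, since the adjusted p of TIMD4 and STAB1 without the block were 0.47 and 0.322. Over all alternatives run, those adjusted p ranged from 0.47 to 1 for TIMD4 and from 0.322 to 1 for STAB1. Leaving out 1 replicate number gave 0 to 12 adjusted calls and 670 to 1956 unadjusted ones, and 1 probe set per gene gave 771 because fewer probe sets were tested. The count of receptor probe sets with an unadjusted limma p under 0.05 was 0 of 13 without a filter and 0 of the 2 tested in every other alternative. The remaining 11 were not tested in those alternatives, among them limma without the block. The count there says nothing about these 11. The count with 1 direction in all pairs was 0 of the 2 tested, 2 of 13 without a filter, and 0 to 1 with a replicate left out, where there are fewer pairs. The log2 difference of TIMD4 set a turned to -0.092 without replicate 3 (range -0.092 to 0.471 over the replicates left out). With arrays centred on their medians MRC2 set a had -0.0098. In 108 other comparisons with an alternative, a difference kept its direction and call or stayed within the SD of the pairs. A count among these stayed within a fixed ratio of the count in the main fit. Probe sets near the floor limit what can be said: 11 of the 13 did not pass the filter, and 9 lay under 3 on every array. Whether a change in so weak a level could be detected was not tested.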
